A study of Homo sapiens with 9 samples.

Results

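The metallothionein gene cluster of human chromosome 16 was examined for open chromatin through its 10 protein-coding members MT1A, MT1E, MT1F, MT1G, MT1H, MT1M, MT1X, MT2A, MT3 and MT4. Members were chosen by name, and every ATAC-seq peak that overlapped a member's gene body or the 5 kb on either side of it was counted as belonging to that member. The 10 members stood among 20163 protein-coding genes of the annotation, and their windows held 11 of the 111260 merged accessible regions of the experiment. Chromatin accessibility was measured with ATAC-seq, in which a transposase cuts and tags DNA that is not covered by nucleosomes, in the human hepatocellular carcinoma line HepG2. Every culture was transfected with 50 nM siRNA and grown for 72 h. The NTG cells received a non-targeting control, and the siINO80#1 and siINO80#2 cells received siRNAs against INO80, the ATPase of the INO80 chromatin remodeling complex, so that all groups shared the transfection itself. Each of the 3 groups had 3 replicates, named A to C, from separate transfections, but 1 peak list was deposited per group. No spread between replicates could therefore be measured, and no difference between lists carries a p-value.

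Metallothioneins are small, cysteine-rich proteins that bind zinc and copper and also take up toxic metals such as cadmium. MT2A and the MT1 genes are expressed in many tissues, the liver among them, whereas MT3 is best known from brain and MT4 from stratified squamous epithelium. Their transcription is switched on by the zinc-sensing factor MTF1, which binds metal response elements close to the start site.

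The cluster spanned 119.124 kb from the start of MT4 to the end of MT1X in GRCh37, the build used for all coordinates. Only MT1G was annotated on the minus strand. Promoter sequences carrying metal response element cores are shown for 2 members whose promoters had a peak in every list (MT2A and MT1X) and for 1 that had none (MT1H). Each is the 250 bases before the start site of the canonical transcript, read 5' to 3' on the strand of the gene from the GRCh37 reference, and capitals mark the core, TGCGCNC or TGCACNC on either strand. MT2A and MT1H are shown because they held the most cores, one with a peak and one without, and MT1X because it shared a spaced pair of cores with MT1H.
MT2A, chr16:56642246-56642495, plus strand: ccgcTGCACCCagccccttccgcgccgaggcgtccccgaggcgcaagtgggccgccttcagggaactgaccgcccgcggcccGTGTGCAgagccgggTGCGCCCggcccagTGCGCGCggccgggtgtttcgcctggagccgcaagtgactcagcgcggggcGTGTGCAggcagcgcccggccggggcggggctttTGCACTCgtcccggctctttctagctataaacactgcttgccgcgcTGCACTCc
MT1X, chr16:56716132-56716381, plus strand: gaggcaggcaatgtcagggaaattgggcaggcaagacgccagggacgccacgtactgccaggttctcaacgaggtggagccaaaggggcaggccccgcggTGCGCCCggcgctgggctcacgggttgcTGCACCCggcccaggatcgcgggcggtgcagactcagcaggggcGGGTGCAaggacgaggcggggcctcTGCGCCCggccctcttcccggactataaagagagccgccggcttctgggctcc
MT1H, chr16:56703476-56703725, plus strand: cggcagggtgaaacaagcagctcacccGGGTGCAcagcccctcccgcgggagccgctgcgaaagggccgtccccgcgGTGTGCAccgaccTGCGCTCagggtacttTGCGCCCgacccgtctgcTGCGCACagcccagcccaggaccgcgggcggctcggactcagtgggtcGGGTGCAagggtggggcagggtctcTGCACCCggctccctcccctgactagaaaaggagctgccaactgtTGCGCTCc

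The core was present in all 10 member promoters when the window was extended to 50 bases after the start, against 36.5% of 19862 promoters of the same length. It occurred 8 times at MT2A and 8 times at MT1H, 6 times at MT1F and at MT1G, 5 times at MT3, 4 times at MT1X, 3 times at MT1E, MT1M and MT4, and 1 time at MT1A. Promoters with 3 or more cores made up 3.19% of all promoters, and 9 of the 10 members were among them. The number of cores overlapped between members with a peak (3 to 8, median 6) and those without one (1 to 8, median 3). Both groups included a promoter with 8.

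One arrangement of cores, chosen after the sequences had been seen, recurred at 6 of the 7 MT1 genes. A core on the opposite strand was followed by one on the gene's own strand with 25 bases from the first base of one to the first base of the other. The pair began at position -78 in MT1G, MT1H, MT1M and MT1X, at -77 in MT1E and at -49 in MT1F, with the start site itself as position 0. Of 19862 promoters, 13 (0.0655%) held such a pair, and 6 of those 13 were these MT1 genes. The pair was found at 4 promoters with a peak, and at MT1H and MT1M without one. MT1A, MT2A, MT3 and MT4 held no such pair.

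Other motifs were less widely shared. The TATA box, TATAAA on the gene's own strand, was present at 6 of 10 members (MT2A, MT1E, MT1G, MT1X, MT3 and MT4) against 7.03% of all promoters. It occurred at 4 of the 5 members with a peak and at 2 of the 5 without. Over all promoters the order was the reverse, with 3.64% where a peak was found in every list and 12.8% where none was. The GC box, GGGCGG, bound by Sp1-type factors, was present at 9 of 10 members, all but MT4, against 61.5% of promoters. A site for AP-1, TGACTCA or TGAGTCA on either strand, was present at MT2A alone, at position -104, and in 3.56% of all promoters. The same bases of MT2A also matched the antioxidant response element core TGACNNNGC, which was otherwise found among members at MT1X and in 14.0% of all promoters.

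The 5 promoters with a peak resembled the 5 without in base composition. Their GC content was 67.0% to 72.0% with a peak and 64.3% to 73.3% without. For comparison, the median over all promoters was 65.3% where a peak was found in every list and 57.7% where none was. The number of CpG dinucleotides was 24 to 37 in the first 5 and 8 to 40 in the others, with MT4 lowest and MT3 highest.

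**Figure D1:**
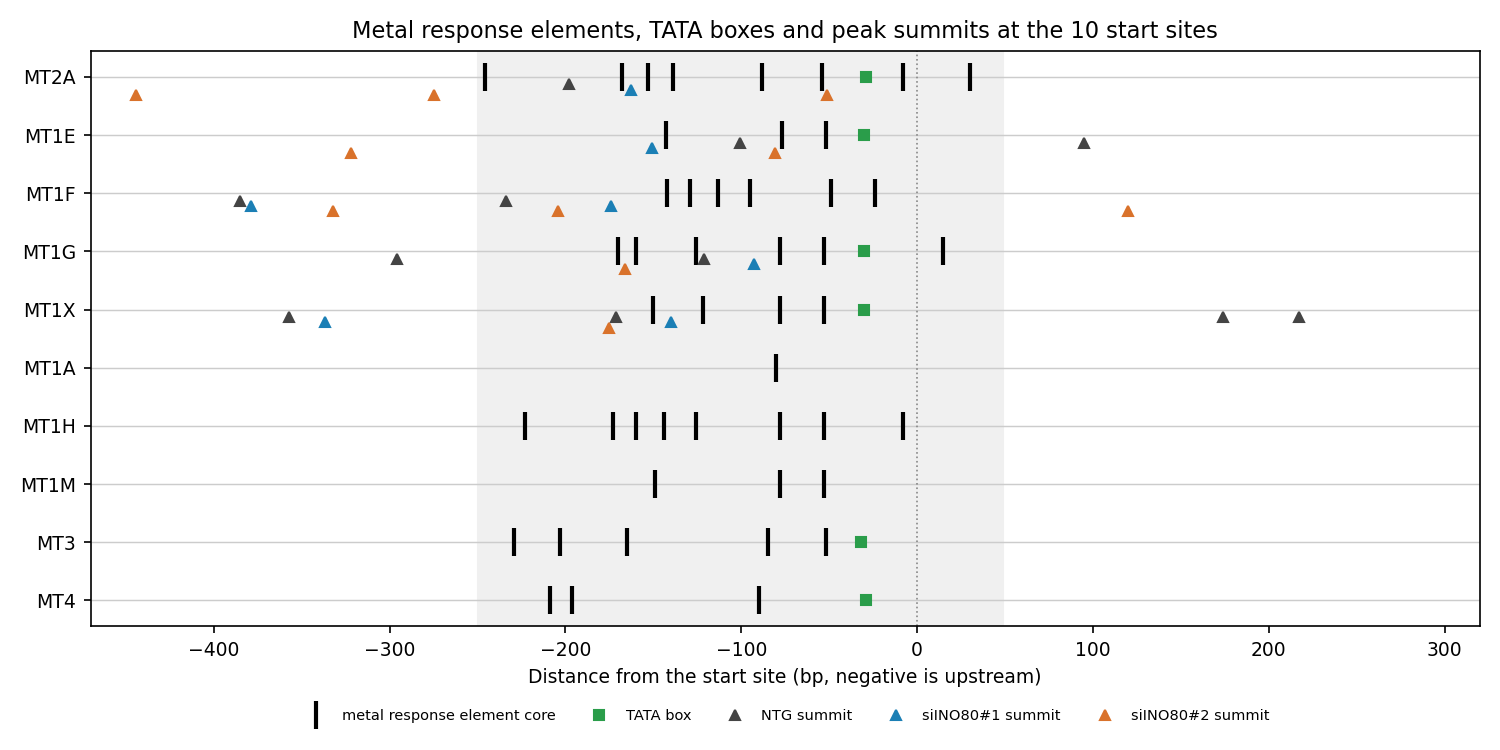
Position of metal response element cores (black ticks) and TATA boxes (green squares) around the start site of each of the 10 members, in bp, within the shaded window of 250 bases before to 50 bases after it. Triangles just beneath a line are summits of that member's promoter in the NTG, siINO80#1 and siINO80#2 lists, and they appear at the upper 5 members and not at the lower 5, although both sets carry cores.

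A summit within 1 kb of an annotated start, the definition of a promoter peak used here, was found at 5 of 10 members in each list. The background was 60.8% of protein-coding genes in NTG, 60.4% in siINO80#1 and 53.7% in siINO80#2, so the members' share was somewhat below it in every list. The same 5 genes, MT2A, MT1E, MT1F, MT1G and MT1X, had the peak in all 3 lists, where 51.3% of protein-coding genes did. The remaining 5, MT1A, MT1H, MT1M, MT3 and MT4, had it in no list, as did 35.0% of protein-coding genes. In the lists as deposited no member gained or lost its promoter peak with either siRNA against INO80. When intervals were limited to a −log10 q of at least 5, MT1G had none in siINO80#1 and MT1E none in siINO80#2, and at equal list size MT1G again had none in siINO80#1.

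Of the members without a promoter peak, MT1H was the nearest to one. Its closest summit was at -1453, -1656 and -1583 bp for NTG, siINO80#1 and siINO80#2, inside the peak at the promoter of its divergent neighbour MT1G. Around MT1M the closest summit was at -5350, -5170 and -6959 bp in NTG, siINO80#1 and siINO80#2. For MT1A the distances in the same order were -11357, -11177 and -12966 bp. Both lay in a stretch of 29.9 kb without a peak in any list, chr16:56661459-56691349. That stretch also contained MT1B, MT1CP, MT1DP, MT1JP and 2 genes without a symbol, and was the longest of the cluster.

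MT3 and MT4 lay on either side of a single peak, in an intron of BBS2, a gene of the BBSome. Its summit nearest to MT4 was 12091 to 12132 bp downstream of that start across the lists. The summit nearest to MT3 was at -12135 to -12351 bp, and in NTG these were 2 different summits of the interval, which fell outside both windows. At 10 further genes and pseudogenes of the family, MT1B, MT1L, MT1JP, MT1DP, MT1IP, MT1CP, MT1HL1, MT1P1, MT1P3 and MT1XP1, no list had a promoter peak.

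The members are close paralogs, so that reads may match more than one copy. To see how far this held at the promoters, the 32-base words of each 300-base window were counted in the genome. All words were unique in 9 of 10 promoters, and 94.4% were unique in MT1H. Within 1 kb on either side of the canonical start the share was lower, from 81.9% at MT1M and 82.3% at MT1E to 98.6% at MT1X. In the 29.9 kb stretch 89.5% of words were unique and no base was unknown, against 86.0% over the whole cluster. Promoter identity was highest for MT1G and MT1H, at 80.9% of aligned positions, and had a median of 65.4% over the 21 pairs of MT1 genes. How the authors treated reads that matched several places is not given in the sources used here.

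**Figure D2:**
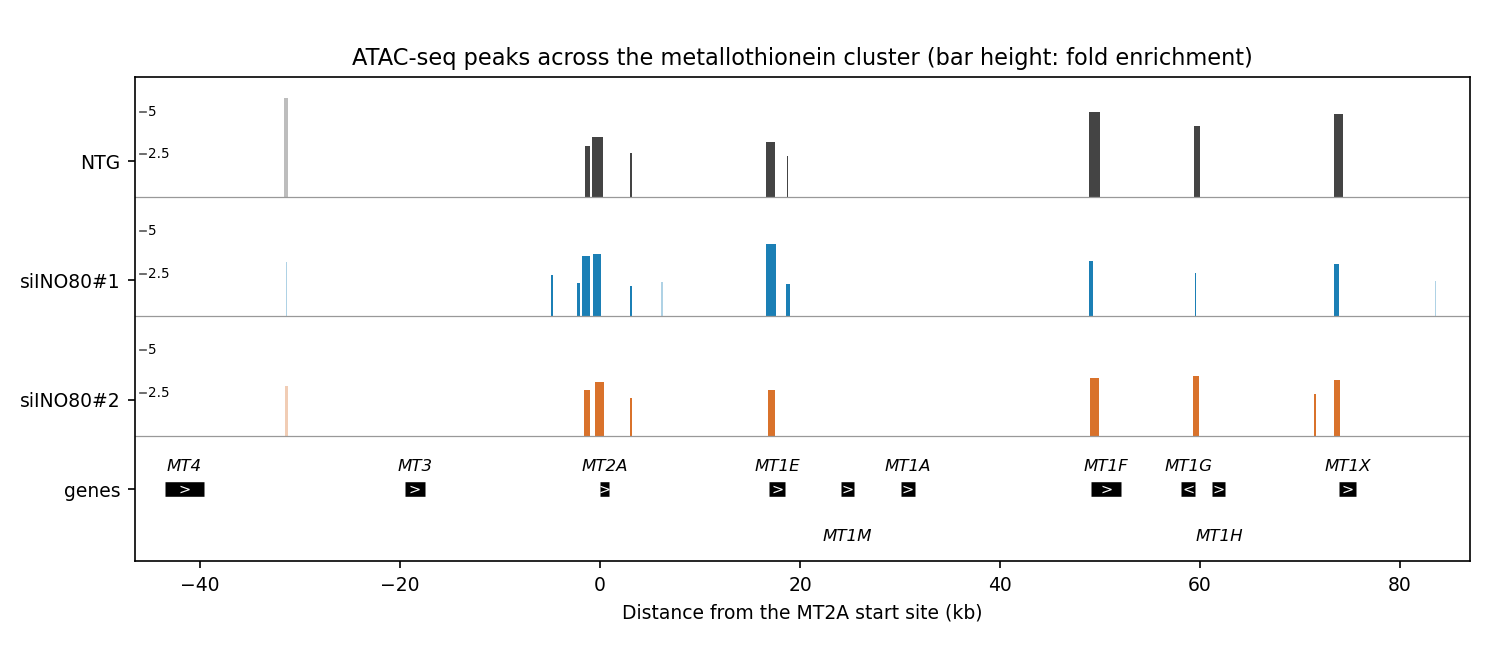
Peaks of the NTG, siINO80#1 and siINO80#2 lists along the cluster, with distance from the MT2A start in kb and bar height giving fold enrichment over local background. Full colour marks the 8, 10 and 8 intervals inside the member windows, pale bars lie outside them, and black boxes with arrowheads are the 10 genes with their direction. The stretch of 29.9 kb with MT1M and MT1A holds no bar in any list.

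The member windows held 8 intervals in NTG, 10 in siINO80#1 and 8 in siINO80#2. These covered 5331, 4478 and 4703 bp, so the list with most intervals covered the least sequence. After merging, 7 of 11 regions were found in all 3 lists, against 26.8% of all merged regions. These 7 were the 5 promoters, a region at -1178 bp from the MT2A start, and one 2987 bp downstream of that start. None was found in NTG alone, whereas 24.4% of all merged regions were. Both background shares cover regions of every kind, promoter or not. Among protein-coding genes, 51.3% had a promoter peak in every list, 3.20% in NTG alone and 35.0% in none. How far the promoter content of the windows set the members' shares was not tested.

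Seen from each list, 8 of 8 NTG intervals in the windows were overlapped by an siINO80#1 interval (exact 95% interval 63.1% to 100%), beside 56.5% of all NTG intervals. In siINO80#2, 7 of 8 NTG intervals were overlapped, beside 48.0% overall. Of the 10 siINO80#1 intervals, 8 were overlapped in NTG (background 56.6%) and 7 in siINO80#2 (background 52.2%). Of the 8 siINO80#2 intervals, 7 were overlapped in NTG (background 63.6%) and 7 in siINO80#1 (background 69.1%). Each of these exact intervals was wide, the lowest reaching down to 34.8% for siINO80#1 in siINO80#2, and 5 of the 6 held the background share. NTG in siINO80#1 did not, but its share was 83.3% (exact 95% interval 35.9% to 99.6%) at a −log10 q of at least 5 or at equal list size and 75% (34.9% to 96.8%) when 50% of the interval had to be overlapped. Every background here covers all intervals, promoter or not, in the full lists at 1 bp overlap. No background was computed at the stricter settings.

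The 4 regions not shared by every list were weak and lay away from the promoters, as did the shared region downstream of MT2A, with fold enrichments of 2.60, 1.78 and 2.19. A region 1528 bp downstream of the MT1E start had a fold enrichment of 2.40 in NTG and 1.92 in siINO80#1 and was not called in siINO80#2. Regions at -4813 and -2214 bp from MT2A were called in siINO80#1 alone, at fold enrichments of 2.39 and 1.95. A region at -2408 bp from MT1X was called in siINO80#2 alone, at 2.44. By fold enrichment the 4 unshared regions stood between percentiles 0.325 and 12.9 of their lists. The outermost interval within the windows was the siINO80#1 interval 4712 bp from the MT2A gene, and the first one beyond them, again of siINO80#1, was 5205 bp from it with a fold enrichment of 1.98.

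More accessible regions lay nearest to the MT2A start than to that of any other member. MT2A is the most widely expressed member of the family, and 5 of the 11 regions were nearest to its start. Its promoter region, chr16:56641729-56642944, overlapped exon 1 and the upstream sequence, and the interval measured 1021 bp in NTG, against 754 bp for siINO80#1 and 991 bp for siINO80#2. The interval was not the widest of the promoters in NTG, where MT1F had 1168 bp, or in siINO80#1, where MT1E had 986 bp. Strongest summits at MT2A were at -198, -163 and -51 bp in NTG, siINO80#1 and siINO80#2. In the 200 bp around the overall strongest summit of MT2A stood 5 cores and the AP-1 site. Within the same distance of a summit, 6 of 11 window regions had at least 1 core, against 13.9% of all merged regions. The AP-1 site was found in 2 of 11, against 11.8%. Both background shares cover regions of every kind, promoter or not. In the longer window around the start, 40.4% of all promoters with a peak in every list held a core.

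Fold enrichment, the ratio of reads at the summit to the local background that the peak caller estimated around it, was 3.50 at MT2A in NTG, 3.62 in siINO80#1 and 3.17 in siINO80#2. The 3 lists thus differed little at this promoter. The reads at the summit were recovered from the fold enrichment and its p-value as 57, 81 and 62. Divided by the genome-wide background of each list, a scale that adjusts for depth, these came to 14.9, 15.7 and 11.6 times background, the highest of the 5 promoters in each list. Its local background was high as well, at 4.08, 4.20 and 3.53 times the genome background, above 97.2%, 98.0% and 97.1% of promoters found in all lists. Hence MT2A ranked first of the 5 by pileup in every list, but not by fold enrichment in any.

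MT1E, one of the metal-inducible MT1 genes, had its promoter region at chr16:56659071-56660056, which overlapped the first exon and the 5' UTR. The strongest summit was 95 bp downstream of the canonical start in NTG and at -151 and -81 bp in siINO80#1 and siINO80#2. Fold enrichment was 3.22 in NTG, 4.22 in siINO80#1 and 2.67 in siINO80#2. Here siINO80#1 was the highest list and siINO80#2 the lowest, so the 2 siRNAs lay on opposite sides of NTG in the values as deposited. The summits compared were at different positions. At -101 bp, nearer to the siINO80 summits, NTG had 30 reads and a fold enrichment of 2.87, still between the 2 siINO80 lists. Reads at the strongest summits were 34, 58 and 35, or 8.90, 11.2 and 6.56 times the genome background. Within its list the peak stood at percentile 43.6 in NTG, 70.9 in siINO80#1 and 26.7 in siINO80#2 by fold enrichment, where 0 is the weakest interval.

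The MT1F promoter region, chr16:56691350-56692517, was widest in NTG (1168 bp), narrower with siINO80#2 (951 bp) and narrowest with siINO80#1 (411 bp), and only the siINO80#1 interval stopped short of the canonical start. Fold enrichment was 4.99 in NTG, the highest of any member in any list, 3.26 in siINO80#1 and 3.37 in siINO80#2. Summit reads were 47, 40 and 40, or 12.3, 7.76 and 7.50 times the genome background. Both siINO80 lists were lower than NTG on both scales.

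MT1X, at the telomeric end of the cluster, showed the same order. Its promoter region, chr16:56715913-56716812, had a fold enrichment of 4.88 in NTG, 3.08 in siINO80#1 and 3.26 in siINO80#2. Summit reads were 51, 42 and 42, or 13.4, 8.15 and 7.87 times the genome background. The NTG interval was also the widest, at 890 bp against 482 and 557 bp, and had 4 summits where siINO80#1 had 2 and siINO80#2 had 1.

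At MT1G the promoter region was chr16:56701792-56702469, upstream of and across the start of the only gene on the minus strand. Fold enrichment was 4.14 in NTG, 2.52 in siINO80#1 and 3.49 in siINO80#2. Summit reads numbered 37, 32 and 40. The siINO80#1 interval was 176 bp wide, against 594 bp in NTG and 585 bp in siINO80#2, and stood at percentile 20.5 of its list, the lowest of any member promoter peak. Relative to the genome background the summits were 9.69, 6.21 and 7.50.

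**Figure D3:**
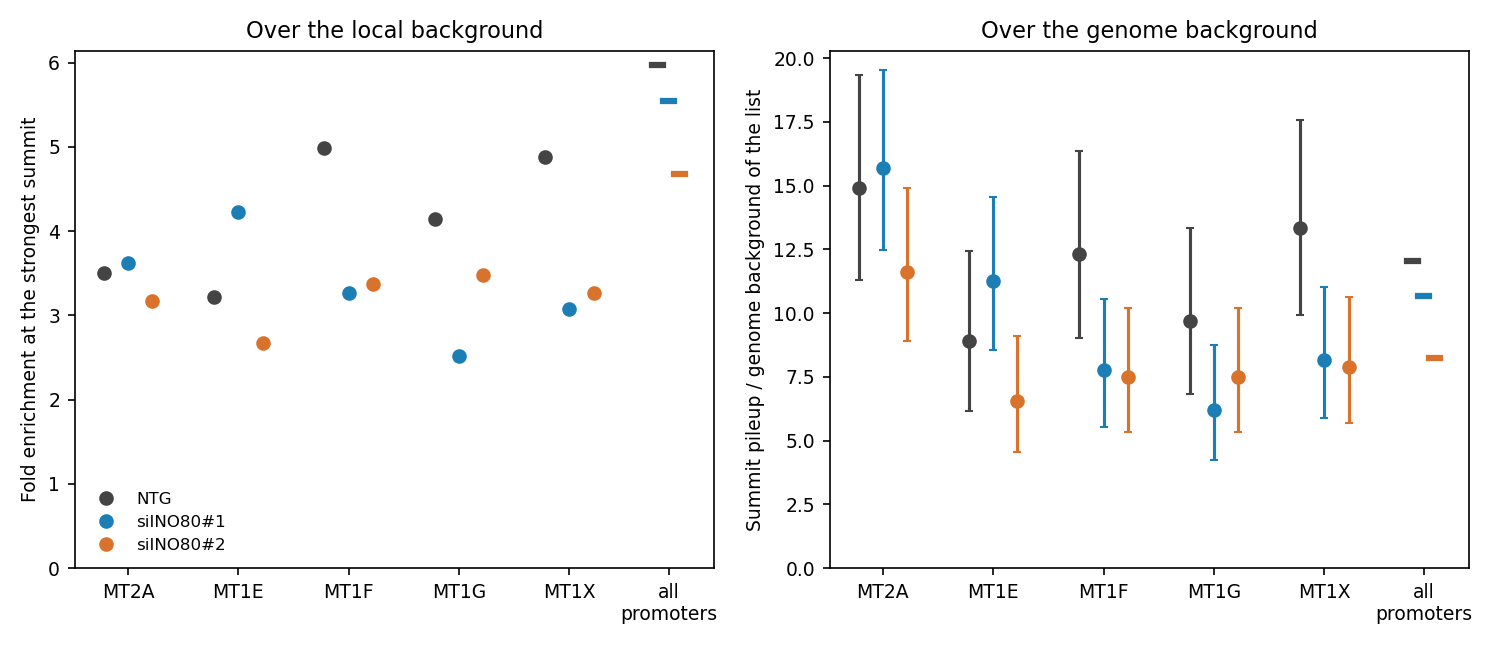
Strongest promoter summit of the 5 members with a promoter peak in each list, as fold enrichment over the local background (left) and as summit reads over the genome background of the list (right). Bars on the right are exact 95% Poisson intervals of the read count, which cover counting error only, and short dashes give the median of 10335 protein-coding promoters found in all lists. All member values on the left lie under the dash of their own list, while MT2A on the right lies above it in each list.

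Compared with all 10335 protein-coding promoters found in every list, the 5 member promoters had low fold enrichments. Their median was 4.14 in NTG, 3.26 in siINO80#1 and 3.26 in siINO80#2, where the medians over all such promoters were 5.97, 5.54 and 4.68. On the pileup scale they stood closer to the rest, with medians of 12.3, 8.15 and 7.50 against 12.0, 10.7 and 8.25 times the genome background. The local background of every member was above the median promoter's in each list, which on this scale was 1.81, 1.79 and 1.63.

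Fold enrichment was lower in both siINO80 lists than in NTG at 3 of the 5 members, MT1F, MT1G and MT1X, and at 56.8% of all promoters found in every list. The members' share was thus close to the background. At MT2A and MT1E siINO80#1 was higher than NTG, whereas siINO80#2 was lower. This order depended on the scale, since the median ratio of fold enrichment to NTG over all promoters was itself 0.945 with siINO80#1 and 0.813 with siINO80#2. The ratios at MT1E (1.31 and 0.830) and MT2A (1.04 and 0.907) both lay above that median with either siRNA. At MT1G the ratio was below it with siINO80#1 (0.609) and above it with siINO80#2 (0.841).

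The ratio of summit pileup over genome background between siINO80#1 and NTG was 0.630 at MT1F (95% counting interval 0.403 to 0.982), 0.610 at MT1X (0.396 to 0.936) and 0.641 at MT1G (0.386 to 1.06). It was 1.05 at MT2A (0.741 to 1.50) and 1.26 at MT1E (0.814 to 1.99). Counting error alone thus left the values at MT1F and MT1X below 1 and the other 3 on either side of it, where the interval was below 1 at 10.1% of all promoters. Between siINO80#2 and NTG the ratio was 0.609 at MT1F (0.389 to 0.949), 0.589 at MT1X (0.382 to 0.904), 0.774 at MT1G (0.482 to 1.24), 0.778 at MT2A (0.534 to 1.14) and 0.737 at MT1E (0.446 to 1.22). Again MT1F and MT1X had intervals below 1, as did 37.4% of all promoters. The median ratio of all promoters was 0.905 with siINO80#1 and 0.716 with siINO80#2, and it fell inside all 10 member intervals. The summits compared did not always share a position, as at MT1E. The counting intervals leave out the spread between replicates, and the reads are not independent molecules. NTG was also the shallowest list, and the part of depth in these ratios was not tested.

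**Figure D4:**
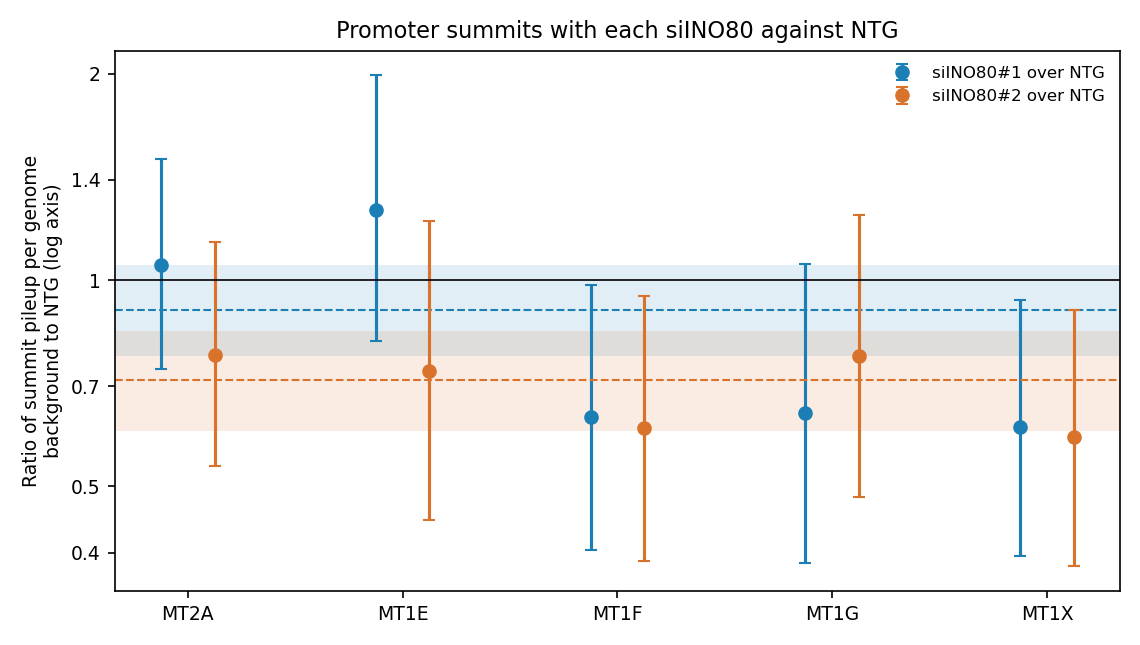
Ratio to NTG of the strongest promoter summit, each divided by the genome background of its list, for siINO80#1 and siINO80#2 at 5 members, on a log axis. Vertical bars are exact 95% counting intervals, dashed lines are the medians of 10335 promoters (0.905 and 0.716) and shaded bands their interquartile ranges. MT1F and MT1X lie below 1 with both siRNAs, and every bar crosses the dashed line of its colour.

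Genes that act on the same metals were examined in the same way. MTF1, the factor that binds metal response elements, had a promoter peak in all lists, with fold enrichments of 5.68 in NTG, 4.40 in siINO80#1 and 3.69 in siINO80#2. SLC30A1, which exports zinc across the plasma membrane and is itself an MTF1 target, had 7.04, 6.76 and 5.83. In both genes the order of the lists was NTG, siINO80#1, siINO80#2, which is also the order of the medians over all promoters.

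Of all protein-coding genes, 51.3% had a promoter peak in every list and 35.0% in none. Of 10 zinc exporters of the SLC30 family, 7 had a promoter peak in every list and 3 in none. Of 14 zinc importers of the SLC39 family, 10 had one in every list, 2 in none and 2 in some. These 2 were SLC39A3, called in siINO80#1 alone at 3.14, and SLC39A7, called in NTG at 2.22 and in siINO80#1 at 2.09. All 8 copper-handling genes had a peak in every list. Of the 8 protein-coding genes with a start within 250 kb on either side of the cluster, 6 had a peak in every list and 2 in none.

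The lists held 69730 intervals in NTG, 69333 in siINO80#1 and 53113 in siINO80#2, and the read numbers inferred from the genome background were 1.43 and 1.44 times that of NTG in the siINO80 lists, which made NTG the shallowest. Peak lists do not measure the depletion of INO80. The INO80 promoter itself had fold enrichments of 4.51, 4.95 and 4.09. Of 10 hepatocyte and HepG2 markers, 7 had a promoter peak in every list, ALB did in NTG (3.53) and siINO80#1 (3.25), AFP in NTG (3.91), and FGB in none. Of 9 markers of other cells, 1 was called in every list (CD14, at 2.36 to 3.06), 4 in some lists and 4 in none. PTPRC, COL3A1 and SYP were among those called in some lists, at up to 2.44, 2.85 and 3.88. PECAM1 was also listed but was not found in the annotation. Of all protein-coding genes, 51.3% had a promoter peak in every list and 35.0% in none. The part of other cells in the member values was not tested.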

How the data were processed

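ATAC-seq was performed on 9 HepG2 samples in 3 groups, which were assigned from the sample titles. The authors deposited 1 MACS2-format list of peaks per group. Per the labels, reads were processed with Trim Galore 0.4.1, Bowtie2, SAMtools, MACS2 and deepTools 2.2.4 on hg19. Parameters, the transposase offset, the handling of reads with several matches and the way replicates were combined are not given in the sources used here. The deposited values are a fold enrichment (ratio of summit to local background) and the −log10 of its p and q values, alongside a start, an end and a summit position. No replicate values and no read totals were in the lists, so depth is known only through the recovered background.

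Summit reads and local background were solved from fold enrichment and −log10 p under the MACS2 formulas. Over 49 summits in the windows the error in −log10 p was at most 3.54e-05, and any other whole number of reads was off by 0.0316 or more. The smallest background value among 4000 summits sampled from each list was taken as the genome background of that list. It was 3.82, 5.16 and 5.34 reads for NTG, siINO80#1 and siINO80#2. Genes and starts came from GENCODE 44 lifted to GRCh37, overlap was counted from 1 bp, and intervals are exact Clopper-Pearson or Poisson at 95% and cover counting error only. Analyses used Python 3.11.15, pandas 2.3.3, scipy 1.17.1 and Biopython 1.88. The steps were tested on simulated data and overlaps were checked against bedtools 2.31.1. All 10 members are named, and of other genes MTF1, SLC30A1 and those with a peak in some lists only, except 1 that is not reported here. The members and the gene lists were chosen with earlier results of these data known. Promoter sequences were read from the GRCh37 reference, and 4 of the 10 windows were found, with identical bases, in the RefSeq promoter table of GRCh38. Alternatives were other distances and windows, −log10 q of at least 5, equal list sizes, 50% overlap and other rankings.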

Additional observations from a re-analysis of the deposited data

Results flagged for a closer look

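At 2 of the 5 open promoters the 2 siRNAs against INO80 lay on opposite sides of NTG. The share of all promoters with such an opposite pair was not computed. At MT1E the fold enrichment differed from NTG by 1.00 with siINO80#1 and by -0.55 with siINO80#2. At MT2A the differences were 0.12 and -0.33. At both genes the counting interval of the pileup ratio to NTG held 1 with either siRNA. With 1 list per group, the difference between the siRNAs was not tested. MT1E and MT2A gave the only opposite pairs among the 8 deposited measures examined. These were the 5 promoter fold enrichments and the number of intervals, number of summits and covered length in the windows. Relative to the median ratio of all promoters (0.945 with siINO80#1 and 0.813 with siINO80#2), neither pair was opposite: MT1E had fold ratios of 1.31 and 0.830 and MT2A of 1.04 and 0.907, all above it. On that scale MT1G, at 0.609 and 0.841, was the opposite pair.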

How the results depend on the processing

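No paired analysis was possible because each group had 1 list, and for the same reason no replicate could be left out. The number of members with a promoter peak, 5 in each list, ranged from 4 to 6 over the planned settings, with MT1H added at 2.5 kb. At a −log10 q of at least 5, members open in every list fell to 3, since MT1G dropped out of siINO80#1 and MT1E out of siINO80#2 (at equal list size MT1G again left siINO80#1), and the window intervals numbered 5 in siINO80#1 and 5 in siINO80#2. The 10 siINO80#1 intervals became 6 with windows of 1 kb and 5 at equal list size. Sharing rose to 100% for siINO80#1 in NTG with windows of 1 kb, at the q threshold and at equal size. It also rose to 100% for NTG in siINO80#2 and siINO80#1 in siINO80#2 at equal size, for siINO80#2 in NTG with 1 kb windows and at the q threshold, and for siINO80#2 in siINO80#1 with 1 kb windows. It fell from 100% to 83.3% (q threshold, equal size) and 75% (50% overlap) for NTG in siINO80#1. For siINO80#2 in siINO80#1 it fell from 87.5% to 62.5% (equal size, 50% overlap). The background for the latter pair was 69.1% in the full lists at 1 bp overlap, and it was not computed under the other settings. The median percentile of the 5 promoters, 65.4, 53.6 and 52.3 in NTG, siINO80#1 and siINO80#2 by fold enrichment, was 78.9, 65.6 and 67.5 by −log10 q and 44.3, 33.5 and 35.3 among protein-coding promoter peaks. The settings that follow were chosen after seeing the data. The rank among promoters found in every list gave 20.1, 12.2 and 22.4. Relative to the median promoter, 2 members (MT1F and MT1X) were lower in both siINO80 lists in place of 3, where 35.6% of all promoters were. In all, 92 counts and shares recomputed under these settings, this last one included, were within 1.5 times of the reported value or inside its exact interval. Another 19 planned and 3 added values moved beyond those limits, among them counts, shares and every median percentile. The percentiles of single promoters moved at all 30 planned and 15 added values. Percentile limits counted every interval of a list and were narrow, for example 65.1 to 65.8 around the NTG median. The other rankings changed the measure or the reference set. Limits of the shares rested on few intervals and were wide, so these tallies do not measure how robust the results were. Depth limits precision, since the summits in the windows rested on 21 to 81 reads, and the strongest of each promoter on 32 to 81.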
